A study of Rattus norvegicus with 12 samples.

Results

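The PCK rat and the congenic FHH.Pkhd1 rat carry the same segment of chromosome 9 with the Pkhd1 mutation on different genetic backgrounds, and their kidneys were compared here by the 3 arrays of each strain, 6 of the 12 arrays of the series. The arrays were chosen by their titles alone, and each gene was read from 1 probe set, the one with the highest mean over the 12 arrays among those that carry a single gene symbol. PCK is a strain derived from the Sprague Dawley (SD) stock in which the Pkhd1 mutation arose. FHH is the Fawn Hooded Hypertensive strain, and FHH.Pkhd1, in full FHH.PCK-(D9Rat35-D9Rat70)/Mcwi, holds the PCK segment between the markers D9Rat35 and D9Rat70 on the FHH background. SD and FHH, without the segment, were measured on the other 6 arrays and serve as a related background contrast in other RNA. PCK and the SD pool can differ outside the segment too. All rats were 30 days old and ate the 5LOD diet. Each strain was 1 pool of RNA from 6 animals, both kidneys of each, and its 3 arrays are technical replicates of that pool. P-values and errors therefore describe the spread between arrays of a pool and not between animals. The comparison asks how kidneys with the same Pkhd1 segment differ between a background susceptible to polycystic kidney disease and one that is resistant, as the series title contrasts them.

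Pkhd1 encodes fibrocystin, a large membrane protein of the primary cilium and apical membrane of kidney tubule and bile duct cells. Its loss causes autosomal recessive polycystic kidney disease, in which collecting ducts and other tubules widen into cysts. Cystic tubules are known for raised proliferation, cyclic AMP signalling, injury markers, inflammation and matrix deposition, and the severity of the disease varies with genetic background.

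The deposited values are log2 signals, and a difference of 1 in them is a 2-fold difference. Values below 5.74, the 40th percentile of all values, are called below the detection level here, and for a gene with either mean below it the log2 difference is given without a fold. Arrays of 1 pool correlated at 0.9975 to 0.9984 in PCK and at 0.998 to 0.9984 in FHH.Pkhd1, and arrays of the 2 strains with each other at 0.9862 to 0.9893. The defining kidney markers were high in both pools: the proximal tubule phosphate transporter Slc34a1 was at 13.49 ± 0.01 in PCK and 13.63 ± 0.04 in FHH.Pkhd1, the thick ascending limb product Umod at 13.40 ± 0.01 in PCK and 13.69 ± 0.01 in FHH.Pkhd1, and the collecting duct water channel Aqp2 at 12.70 ± 0.04 in PCK and 12.74 ± 0.01 in FHH.Pkhd1 (mean ± SD, n = 3). Poly-A spike-ins, added before labelling, were higher on the PCK arrays by 0.81 (10.81 ± 0.07 against 10.01 ± 0.10), hybridisation spike-ins by 0.29, and beta-actin's excess of 3′ over 5′ signal by 0.13. For each of these the exact permutation test, two-sided, gave p = 0.1, which is the lowest value 3 against 3 arrays can reach, and their part in the results was not tested.

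Genes with an adjusted p under 0.05 in limma and a difference of 1.5-fold or more are referred to as called. Of 10895 genes tested, 635 (5.83%) were called, 319 (2.93%) higher in PCK and 316 (2.9%) lower. These shares are the background for every list count below, and a single call in a list says little beside them. The median difference over all genes was -0.06, and 61.2% of genes were below 0. Of the called genes 201 differed at least 2-fold, and 43 at least 4-fold, 27 of them higher in PCK and 16 lower. The 3 arrays of one strain lay wholly above those of the other for all 635 called genes and for 60.3% of all genes tested, so separation of the arrays says little by itself. Of the other detected probe sets of called genes, 125 of 148 had the same sign, 59 of them at 1.5-fold or more, and 2 went the opposite way by that much.

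Tubule injury genes were among the groups that were higher in PCK. Of 23 tested members of a list for tubule injury and repair, 9 were called higher and none lower, with a median difference of 0.31 beside -0.06 over all genes. Havcr1 encodes kidney injury molecule 1, a receptor that injured proximal tubule cells put on their surface. Its signals were 9.29, 9.14 and 9.33 on the PCK arrays and 6.2, 6.11 and 5.92 on the FHH.Pkhd1 arrays, a 9.05-fold higher mean (log2 difference 3.18 ± 0.08, adjusted p = 2.77e-11, limma). In bulk RNA of this kind, more cells of a type and more RNA per cell cannot be told apart.

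Clu encodes clusterin, a secreted chaperone raised in damaged tubules. It read 11.67, 11.56 and 11.62 on the PCK arrays and 9.68, 9.52 and 9.58 on the FHH.Pkhd1 arrays, a 4.07-fold difference (log2 difference 2.03 ± 0.05, adjusted p = 7.68e-12, limma). Tff3, a secreted trefoil peptide of epithelial repair, read 11.33, 11.29 and 11.30 on the PCK arrays and 8.80, 8.71 and 8.65 on the FHH.Pkhd1 arrays and was 6.00-fold higher (log2 difference 2.58 ± 0.04, adjusted p = 3.56e-13, limma). Lcn2, the iron-siderophore carrier NGAL, was 2.09-fold higher, at 8.09 ± 0.04 in PCK and 7.02 ± 0.03 in FHH.Pkhd1. Gpnmb, a glycoprotein of macrophages and stressed epithelium, was 2.0-fold higher, at 7.32 ± 0.13 in PCK and 6.31 ± 0.07 in FHH.Pkhd1. These 5 genes were the largest of the list. No array of one strain reached the range of the other, as for all 635 called genes and 60.3% of all genes tested. The other 4 called members were chosen for naming after their values were seen: osteopontin (Spp1, 0.90 ± 0.03), ceruloplasmin (Cp, 0.85 ± 0.04), Gdf15 (0.67 ± 0.07) and Prom1 (0.60 ± 0.04), all as log2 difference ± SE. The call of Prom1 was lost without FHH.Pkhd1 array 3 (0.58).

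In the strains without the segment the list's median was 0.01 (SD minus FHH). Havcr1 was lower there (-0.90), at 6.10 in SD and 7.0 in FHH, and Lcn2 was level (-0.02), while Clu (0.70) and Tff3 (0.87) were higher in SD as well. For Tff3 the FHH.Pkhd1 pool stood apart as low: SD was at 11.93 and FHH at 11.06, against 11.31 ± 0.02 in PCK and 8.72 ± 0.07 in FHH.Pkhd1. PCK was called lower than SD for this gene (-0.62), and FHH.Pkhd1 lower than FHH (-2.34). The test of the change in the background difference, (PCK minus FHH.Pkhd1) minus (SD minus FHH), here called the interaction, called 6 list members higher and none lower. Macrophage markers, 11 tested, had no called member and a median of 0.21, with list means of 7.67 to 7.69 on the PCK arrays and 7.52 to 7.53 on the FHH.Pkhd1 arrays. Their part in the injury genes was not tested.

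**Figure D1:**
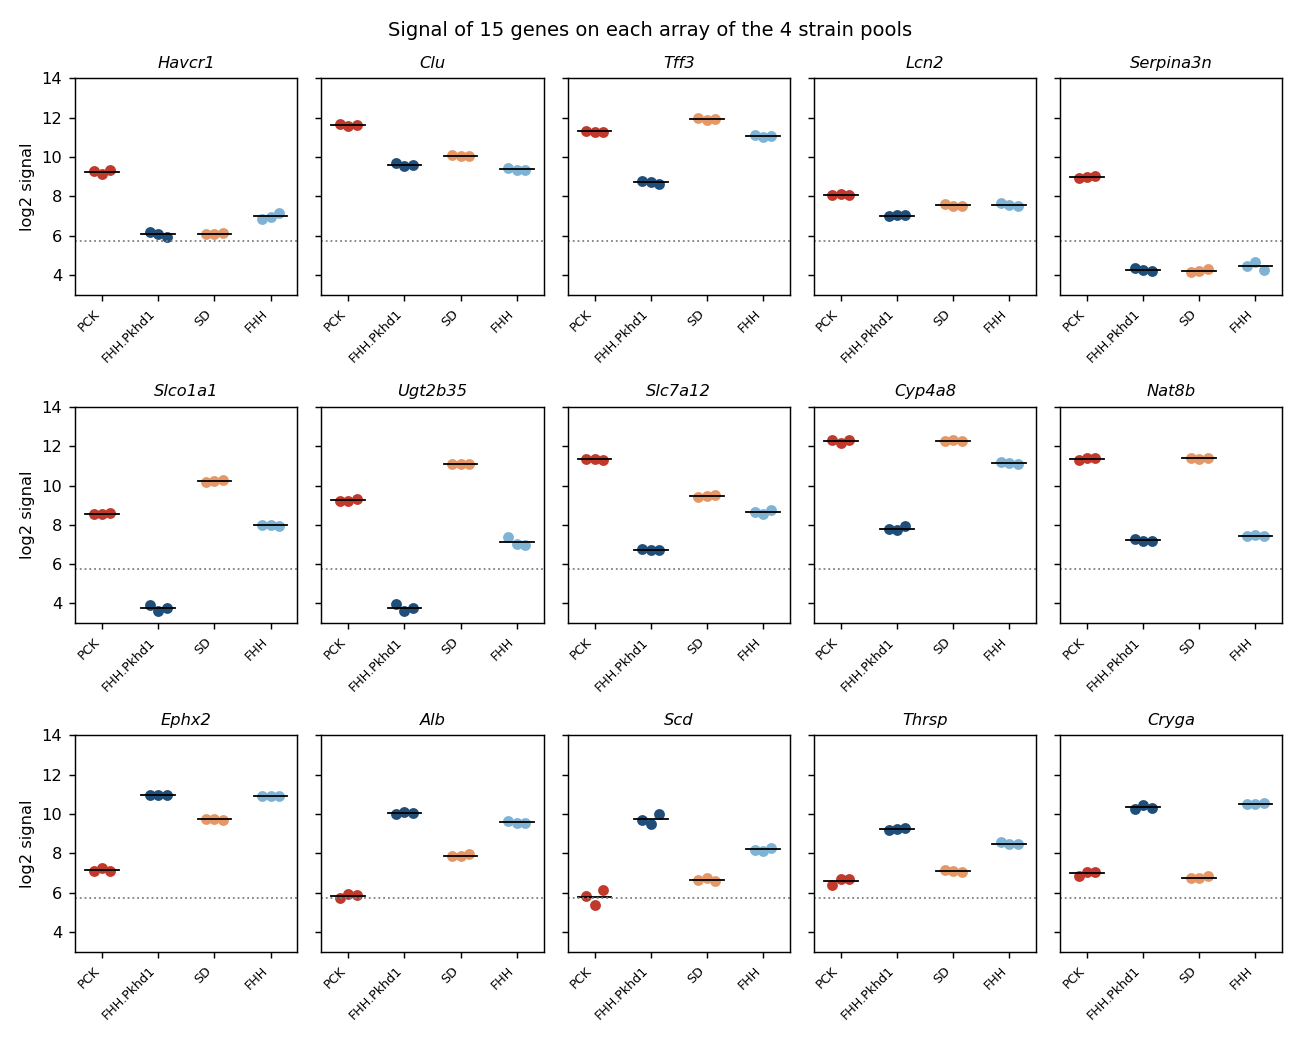
Log2 signal (vertical axis) of 15 named genes on each of the 3 arrays of the PCK, FHH.Pkhd1, SD and FHH pools (horizontal axis), with a bar at the mean and a dotted line at the detection level of 5.74. Havcr1, Clu, Lcn2 and Serpina3n are highest in PCK, Tff3 is lowest in FHH.Pkhd1, and Nat8b and Cryga follow the background in both pairs of strains.

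Secreted plasma-type proteins had called members in both directions. The list of plasma carrier and acute-phase proteins had 5 of 14 tested members higher in PCK and 3 lower. Complement had 2 higher and 1 lower of 15, and coagulation 4 higher and 1 lower of 17. Over all genes tested 2.93% were higher and 2.9% lower, so the single lower calls say little. With the filter at the 60th percentile 1 plasma member was lower and 1 complement member higher, and without a filter 5 plasma members were lower. Serpina3n, an inhibitor of serine proteases and an acute-phase gene, read 8.94, 8.99 and 9.06 on the PCK arrays and 4.37, 4.24 and 4.22 on the FHH.Pkhd1 arrays (log2 difference 4.72 ± 0.08, adjusted p = 2.1e-13, limma). It was below the detection level in FHH.Pkhd1 and also in SD (4.22) and FHH (4.46), so PCK was the single pool with a detected signal. Pzp, an alpha-2-macroglobulin family inhibitor, was 10.3-fold higher in PCK, at 9.61 ± 0.04 in PCK and 6.25 ± 0.09 in FHH.Pkhd1. Azgp1, which encodes zinc-alpha-2-glycoprotein, was 7.84 ± 0.16 in PCK and below detection in FHH.Pkhd1 at 5.41 ± 0.16 (log2 difference 2.43 ± 0.09).

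Alb, the gene for serum albumin, went the other way. It read 5.71, 5.92 and 5.86 on the PCK arrays and 10.01, 10.09 and 10.04 on the FHH.Pkhd1 arrays, was 18.6-fold lower in PCK (log2 difference -4.22 ± 0.05, adjusted p = 1.71e-14, limma), and its second detected probe set gave -2.69. The PCK arrays lay around the detection level, so the size of the fold is uncertain. Ahsg, which encodes fetuin-A, was lower too (log2 difference -1.21 ± 0.14). Hepatocyte markers were tested beside them: Apoa2, Cyp3a2, Cyp7a1, Tat, Tdo2 and F9 lay below the detection level in all 4 pools, and Alb was the 1 called member among the 4 that were tested. Albumin was also lower in SD than in FHH (-1.69).

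Among coagulation genes, Proc, the anticoagulant protein C, was 5.42-fold higher in PCK at 8.99 ± 0.08 in PCK and 6.55 ± 0.11 in FHH.Pkhd1. Antithrombin (Serpinc1) was 3.07-fold higher at 10.96 ± 0.01 in PCK and 9.34 ± 0.05 in FHH.Pkhd1, prothrombin (F2) 2.37-fold higher, and the fibrinogen chain Fga 1.78-fold higher, while the chain Fgb was 1.53-fold lower (-0.61 ± 0.06). The Fgb call was lost under quantile normalization (-0.53) and with arrays centred on their medians (-0.58), and with probe sets averaged Fgb, whose other 2 lay below detection, was not tested. In complement, the inhibitors Serping1 (C1 inhibitor, 2.05-fold, 1.04 ± 0.05) and Cfi (factor I, 1.34 ± 0.07) were higher, and Cfd, the adipocyte product factor D, was 2.73-fold lower. Slpi, a secreted leukocyte protease inhibitor of epithelia, was 3.76-fold higher, at 8.32 ± 0.05 in PCK and 6.41 ± 0.13 in FHH.Pkhd1, and it was lower in SD than in FHH by a difference under the fold limit (-0.49).

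Transporters and enzymes of tubular detoxification included some of the largest differences. Slco1a1 encodes an organic anion transporter of the proximal tubule brush border. It read 8.54, 8.57 and 8.62 on the PCK arrays and 3.92, 3.63 and 3.78 on the FHH.Pkhd1 arrays (log2 difference 4.79 ± 0.06, adjusted p = 1.51e-14, limma), so that FHH.Pkhd1 was below the detection level on every array while PCK was far above it. Ugt2b35, a UDP-glucuronosyltransferase, read 9.19, 9.19 and 9.34 on the PCK arrays and 3.96, 3.61 and 3.78 on the FHH.Pkhd1 arrays (log2 difference 5.46 ± 0.10, adjusted p = 6.51e-13, limma). Dhrs7l1, a short-chain dehydrogenase, had a log2 difference of 4.89 ± 0.07, again with FHH.Pkhd1 below detection.

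Slc7a12 encodes an amino acid transporter of the kidney. It read 11.35, 11.33 and 11.29 on the PCK arrays and 6.75, 6.73 and 6.72 on the FHH.Pkhd1 arrays and was 24.1-fold higher in PCK (log2 difference 4.59 ± 0.04, adjusted p = 2.46e-15, limma). Cyp4a8, a fatty acid omega-hydroxylase that makes 20-HETE, read 12.33, 12.18 and 12.31 on the PCK arrays and 7.78, 7.73 and 7.92 on the FHH.Pkhd1 arrays and was 22-fold higher (log2 difference 4.46 ± 0.05, adjusted p = 1.48e-14, limma), with 4.49 by its second probe set. Nat8b, an N-acetyltransferase, was 17.7-fold higher at 11.35 ± 0.05 in PCK and 7.20 ± 0.06 in FHH.Pkhd1. For Slco1a1, Ugt2b35, Slc7a12 and Cyp4a8 the FHH.Pkhd1 pool was also lower than FHH, which stood at 7.97, 7.12, 8.65 and 11.14 in that order.

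Of 27 organic anion and cation transporters tested, 6 were higher in PCK and 2 lower. The organic cation transporter Slc22a2 was 2.61-fold higher (10.33 ± 0.02 in PCK and 8.95 ± 0.13 in FHH.Pkhd1), the efflux pump Abcb1a 2.36-fold, the conjugate export pump Abcc2 2.30-fold and the anion transporter Slc22a7 2.08-fold. Of 25 amino acid transporters 4 were higher and none lower, with Slc7a12, Slc1a4 (1.13 ± 0.10) and Slc7a13 (1.78-fold, 0.83 ± 0.03) among them. Conjugation enzymes had 5 higher and 2 lower of 27 and a median of 0.15, among them the sulfotransferase Sult1a1 (2.33-fold higher) and Ugt2b7 (1.32 ± 0.12). Proximal tubule markers had 3 higher and none lower of 31, with a median of 0.03. The largest of these markers was Acmsd, an enzyme of tryptophan breakdown (2.37-fold higher).

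A list of genes known to respond to androgens in rodent kidney had 5 of 8 tested members higher in PCK and none lower, with a median of 1.18, beside 0.54 in SD minus FHH. Its called members were Slco1a1, Cyp4a8, Slc22a2, Slc22a7 and Odc1, which encodes the rate-limiting enzyme of polyamine synthesis and was 2.46-fold higher (12.25 ± 0.04 in PCK and 10.95 ± 0.04 in FHH.Pkhd1). FHH.Pkhd1 was also called lower than FHH for Slc22a2 (-0.84), Odc1 (-0.74) and Slc22a7 (-0.72). Against SD, PCK was called higher for Slc22a7 (0.78) and not called for Slc22a2 (-0.21) and Odc1 (0.12). The labels do not give the sex of the animals. The Y-linked Eif2s3y was at 9.85 in PCK, 9.51 in FHH.Pkhd1, 9.66 in SD and 9.57 in FHH, and the 4 probe sets of Xist lay between 2.72 and 3.67 in all 4 pools, below the detection level. Prlr, Cyp2e1 and Gusb were tested and not called.

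Aldo-keto reductases reduce aldehydes, ketones and steroids, and 14 of them were tested. Akr1c1, Akr1c13, AKR1C3l1 and Akr1c19, of the subfamily that acts on steroids and prostaglandins, were higher in PCK. Akr1c13 read 10.17, 10.21 and 10.22 on the PCK arrays and 6.16, 6.16 and 6.37 on the FHH.Pkhd1 arrays, a 15.7-fold difference. AKR1C3l1 was 8.57-fold higher (3.10 ± 0.05), Akr1c19 1.85-fold (0.89 ± 0.06), and Akr1c1 was higher with FHH.Pkhd1 below detection (3.79 ± 0.04). FHH.Pkhd1 was also called lower than FHH for Akr1c13 (-2.93), Akr1c1 (-2.64) and AKR1C3l1 (-1.90), and not for Akr1c19 (-0.33). PCK was called lower than SD for Akr1c13 (-0.83) and Akr1c1 (-1.05), and was not called against SD for AKR1C3l1 (0.38) and Akr1c19 (-0.01). Akr1b7, a reductase of the adrenal cortex, was lower in PCK (-3.69 ± 0.05). Akr1b8 passed the adjusted p (0.000419, limma) at 1.41-fold but not the fold limit. The other 8 members were not called and lay between -0.33 (Akr1c15) and 0.43 (Akr7a3), although the second probe set of Akr1b10 gave 1.11. These genes are near copies of each other, and probe sets of such a family can share signal.

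Enzymes of arachidonate metabolism had 3 members higher and 3 lower of 23. Ephx2 encodes soluble epoxide hydrolase, which breaks down the vasodilator epoxides of arachidonate. It read 7.09, 7.23 and 7.09 on the PCK arrays and 10.97, 10.97 and 10.95 on the FHH.Pkhd1 arrays and was 14.2-fold lower in PCK (log2 difference -3.83 ± 0.04, adjusted p = 3.67e-15, limma). FHH.Pkhd1 and FHH were alike (10.96 ± 0.01 and 10.92), and PCK was below SD, which was at 9.73. Ptgs2, the inducible cyclooxygenase, was 1.73-fold lower in PCK (8.47 ± 0.01 in PCK and 9.26 ± 0.09 in FHH.Pkhd1), and the prostaglandin D synthase Ptgds 3.53-fold higher (8.31 ± 0.06 in PCK and 6.49 ± 0.10 in FHH.Pkhd1). Ptger1, a prostaglandin E receptor outside the list, was lower (-1.70 ± 0.09) and below detection in PCK.

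In the renin-angiotensin system 2 of 10 members were higher and 1 lower, beside 2.93% and 2.9% of all genes. Neither higher member passed the filter at the 60th percentile. Agt, the gene of angiotensinogen, was 2.18-fold higher in PCK at 7.11 ± 0.14 in PCK and 5.99 ± 0.11 in FHH.Pkhd1. Ace, which makes angiotensin II, was at 6.71 ± 0.29 in PCK and just below detection in FHH.Pkhd1 at 5.63 ± 0.07 (1.09 ± 0.11), and the receptor Agtr1b was 1.60-fold lower.

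Genes of nitrogen and fatty acid use had mostly higher called members in PCK. Cps1, the entry enzyme of the urea cycle, read 8.78, 8.88 and 8.72 on the PCK arrays and 4.55, 4.84 and 4.69 on the FHH.Pkhd1 arrays (log2 difference 4.10 ± 0.13, adjusted p = 1.06e-10, limma), and its second probe set gave 2.36. With it, 5 of 19 genes of the urea cycle, arginine and creatine were higher and 1 lower. Agmat, which cleaves agmatine, was 2.18-fold higher, and Arg1, arginase, was lower (-1.06 ± 0.06). In fatty acid oxidation 4 of 33 members were higher and 1 lower, with a median of 0.03. The enoyl-CoA isomerases Eci2 (2.79-fold, 10.37 ± 0.04 in PCK and 8.89 ± 0.07 in FHH.Pkhd1) and Eci1 (1.59-fold) and the peroxisomal bifunctional enzyme Ehhadh (1.69-fold) were higher, and the fourth was Cyp4a8. Acadsb, a short/branched-chain acyl-CoA dehydrogenase, was lower (-1.75 ± 0.18) and below detection in PCK. Of 18 redox genes regulated by the transcription factor NRF2, 4 were higher and none lower: Abcc2, the quinone reductase Nqo1 (1.67-fold, 0.74 ± 0.06), and the glutathione synthesis subunits Gclm (1.66-fold) and Gclc (1.5-fold). The list's median was 0.04, and the Gclc call, at the fold limit, was lost without PCK array 1 (0.58) or 2, or FHH.Pkhd1 array 1 or 2.

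**Figure D2:**
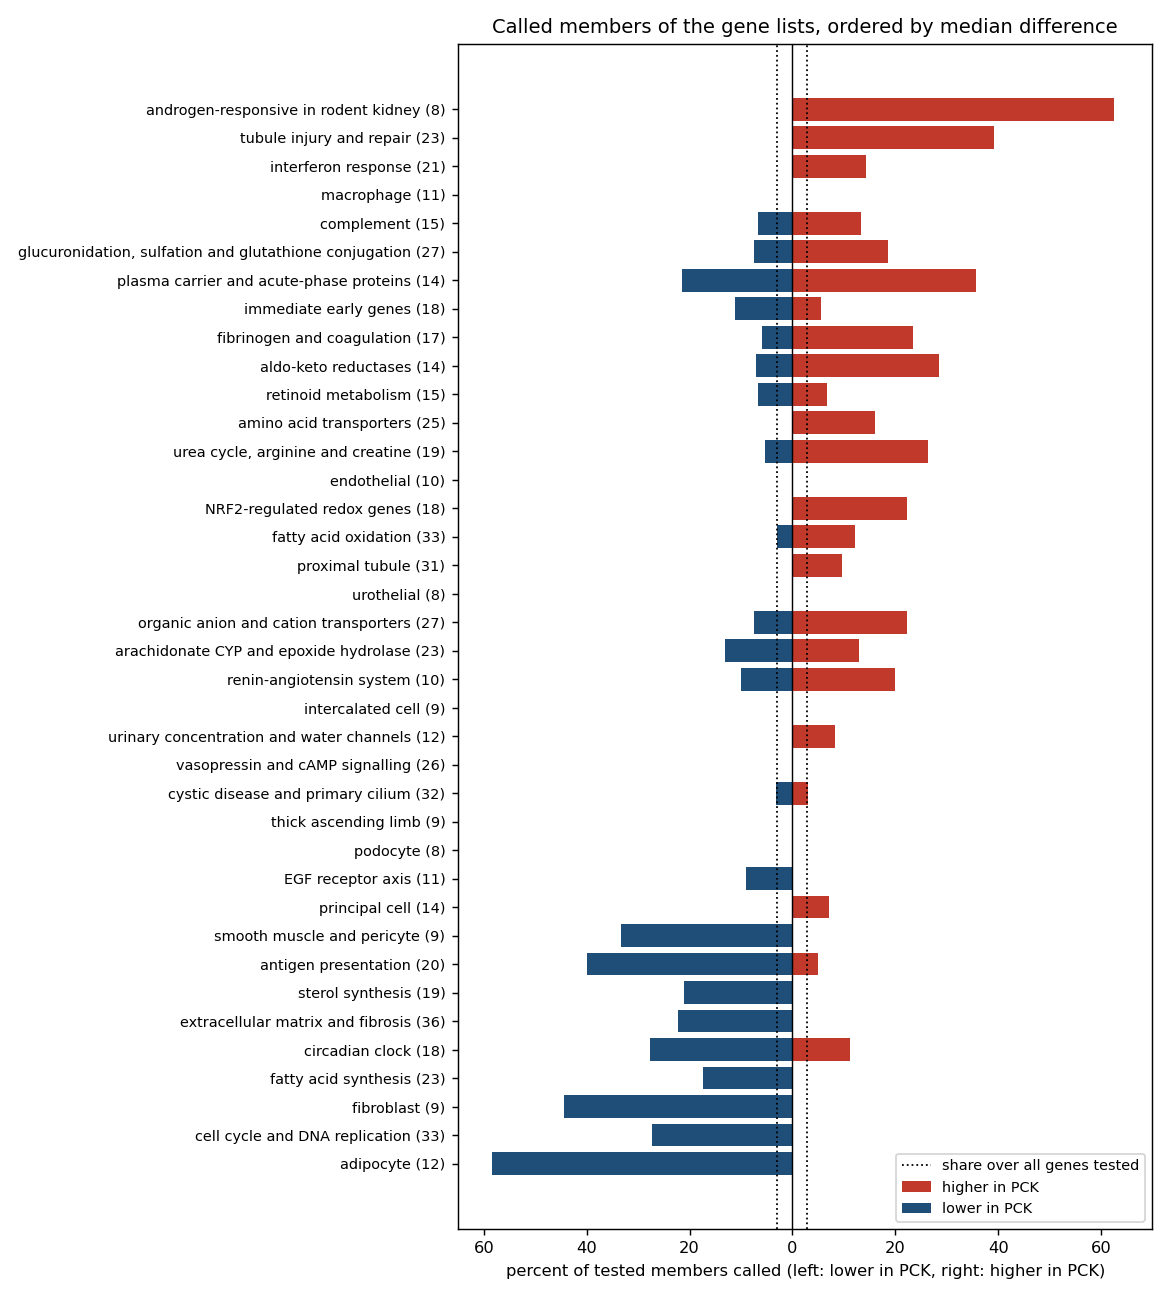
Percent of tested members called lower (left bars) and higher (right bars) in PCK than in FHH.Pkhd1 for each gene list with 8 or more tested members (number in parentheses), ordered by the list's median difference. The dotted lines mark the shares over all genes, 2.9% lower and 2.93% higher, and the androgen-responsive and injury lists stand at the top with the cell cycle and adipocyte lists at the bottom.

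The called cell cycle genes were all lower in PCK. Of 33 tested members 9 were called lower and none higher, 32 of 33 differences were negative, and the list median was -0.47 beside -0.06 over all genes and -0.045 for the list in SD minus FHH. Ccnd2 encodes cyclin D2, which drives entry into the cycle with its kinases. It read 7.73, 7.91 and 7.76 on the PCK arrays and 9.69, 9.65 and 9.63 on the FHH.Pkhd1 arrays and was 3.63-fold lower (log2 difference -1.86 ± 0.07, adjusted p = 1.02e-09, limma), with 7.92 in SD and 9.36 in FHH, so this gene followed the background in both pairs. The minichromosome maintenance genes encode the subunits of the helicase that opens replication origins. Mcm6 read 7.10, 7.53 and 7.33 on the PCK arrays and 8.57, 8.47 and 8.5 on the FHH.Pkhd1 arrays, 2.28-fold lower in PCK (log2 difference -1.19 ± 0.09, adjusted p = 2.87e-07, limma).

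Mcm4 (1.78-fold, 7.58 ± 0.13 in PCK and 8.41 ± 0.05 in FHH.Pkhd1), Mcm2 (1.71-fold, 7.87 ± 0.07 in PCK and 8.64 ± 0.04 in FHH.Pkhd1) and Mcm3 (1.66-fold, 6.44 ± 0.24 in PCK and 7.16 ± 0.13 in FHH.Pkhd1) were lower as well. Mcm5, named after its value was seen, was also called (-0.69 ± 0.09), and Mcm7 at -0.44 did not reach the fold limit. Cyclin E2 (Ccne2, -0.69 ± 0.06), the proliferation marker Mki67 (-0.64 ± 0.07) and the kinetochore protein Cenpf (-0.64 ± 0.06), also named after their values were seen, were the other called members. Under quantile normalization Mki67 and Cenpf (both -0.58) were not called, which left 7 members, Mki67 was not called without PCK array 1 (-0.56), and averaging its probe sets ended the call of Ccne2 (-0.28). None of the 5 called subunits was called in SD minus FHH, where they differed by -0.37 (Mcm6), -0.46 (Mcm4), -0.41 (Mcm2), -0.15 (Mcm3) and -0.27 (Mcm5). The interaction was called for Mcm6 (-0.82 ± 0.12, adjusted p = 0.000333) and not for the other 4.

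Replication genes are known targets of E2F factors, so the 150 bases before the start of 3 subunits that were lower together are shown, from RefSeq's promoter table on build GRCr8, a reference of another rat strain. Capitals mark matches to the letters TTTCGCGC, TTTGGCGC, TTTCCCGC or TTTGCCGC on either strand. Mcm2 lies at chr4:122918095-122918244 (minus strand), Mcm5 at chr19:13488663-13488812 (plus) and Mcm6 at chr13:42404353-42404502 (minus).
Mcm2: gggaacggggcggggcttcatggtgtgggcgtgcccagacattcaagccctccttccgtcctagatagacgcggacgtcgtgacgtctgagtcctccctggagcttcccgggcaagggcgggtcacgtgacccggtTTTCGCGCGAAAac
Mcm5: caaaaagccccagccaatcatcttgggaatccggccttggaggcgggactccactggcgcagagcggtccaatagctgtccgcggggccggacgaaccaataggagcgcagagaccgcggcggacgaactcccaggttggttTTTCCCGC
Mcm6: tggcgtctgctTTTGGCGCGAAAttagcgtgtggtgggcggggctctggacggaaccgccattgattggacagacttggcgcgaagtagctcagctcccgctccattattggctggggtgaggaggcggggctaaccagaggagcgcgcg
In Mcm2 and Mcm6 matches on both strands overlap. Within 250 bases before the start, 1.81% of 27457 promoters held such a match. Mcm7 held one too. The subunits shown are the called ones with a match: the window of Mcm3 held none of these letters, and Mcm4 had no promoter entry. The matches describe the reference sequence and are neither a shown binding site nor a cause.

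Antigen presentation split between its branches. Of 20 tested members 8 were called lower in PCK and 1 higher, and the 8 were class II genes and their partners. The higher one, named after its value was seen, was Ctss, the protease cathepsin S (0.66 ± 0.04). MHC class II molecules display extracellular peptides to helper T cells and are carried by dendritic cells, macrophages, B cells and, under interferon gamma, by tubule cells. RT1-Da read 10.33, 10.29 and 10.24 on the PCK arrays and 11.50, 11.47 and 11.38 on the FHH.Pkhd1 arrays and was 2.24-fold lower (log2 difference -1.16 ± 0.04, adjusted p = 4.01e-10, limma). RT1-Ba read 9.65, 9.74 and 9.77 on the PCK arrays and 11.05, 10.91 and 10.97 on the FHH.Pkhd1 arrays and was 2.38-fold lower (log2 difference -1.25 ± 0.05, adjusted p = 5.93e-10, limma). RT1-Bb was 2.16-fold, RT1-Db1 2.02-fold and RT1-DMa, a chaperone of peptide loading, 1.87-fold lower. The arrays of the strains did not overlap, as for every called gene.

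Cd74, the invariant chain (-0.85 ± 0.03), RT1-DMb (-0.90 ± 0.04) and Ciita, the master activator of class II transcription (-0.85 ± 0.08), were the other 3, named after their values were seen. None of the class I genes tested was called. Macrophage markers had no called member, the B cell markers Cd79b, Ms4a1, Cr2 and Blk lay below detection in all 4 pools, and the part of such cells in the class II signals was not tested. Probe sets disagreed for some of these genes: 3 others of RT1-Ba gave -0.02, 0.26 and 0.34, and 1 other of RT1-Bb gave 0.17. Averaging the probe sets of a gene ended the call of RT1-Ba (-0.17), as well as those of RT1-Bb (-0.47) and Ciita (-0.40). RT1-Db1 (second probe set -0.69) and RT1-Da, RT1-DMa, RT1-DMb and Cd74 kept theirs. The RT1 loci vary in sequence between rat strains, and its part in probe set signals was not tested. RT1-Bb read 4.39 in SD against 10.73 in FHH by the probe set used, and the other went 5.23 the opposite way.

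The class II genes share a promoter layout with an X box and a Y box, and the 150 bases before their starts are shown because these genes were lower together. The bases are RefSeq's on build GRCr8 and not those of PCK or FHH, and capitals mark the Y box letters CTGATTGG and the X box core GCAACNG, searched on both strands. RT1-Ba lies at chr20:4576907-4577056 (plus strand), RT1-Bb at chr20:4604119-4604268 (minus), RT1-Da at chr20:4515265-4515414 (plus) and RT1-Db1 at chr20:4560163-4560312 (minus).
RT1-Ba: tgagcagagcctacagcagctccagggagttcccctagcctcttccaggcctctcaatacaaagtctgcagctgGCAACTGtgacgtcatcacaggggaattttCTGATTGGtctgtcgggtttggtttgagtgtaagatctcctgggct
RT1-Bb: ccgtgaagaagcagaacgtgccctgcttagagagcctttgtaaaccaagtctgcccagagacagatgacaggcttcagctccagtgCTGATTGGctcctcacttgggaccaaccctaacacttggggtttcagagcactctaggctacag
RT1-Da: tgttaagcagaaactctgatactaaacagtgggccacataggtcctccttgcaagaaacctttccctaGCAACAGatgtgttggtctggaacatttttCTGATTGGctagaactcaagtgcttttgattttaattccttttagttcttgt
RT1-Db1: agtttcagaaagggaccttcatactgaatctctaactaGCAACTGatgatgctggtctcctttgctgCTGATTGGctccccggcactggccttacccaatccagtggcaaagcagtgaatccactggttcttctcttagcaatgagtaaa
The Y box letters were in all 4 and the X box core in RT1-Ba, RT1-Da and RT1-Db1, upstream of the Y box. Of 27457 promoters, 3.26% held the Y box letters and 9.78% the X box core within 250 bases. The window of RT1-DMa held neither set of letters, and RT1-DMb had no promoter entry. These matches are a description of the reference and not shown sites.

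The called matrix genes were all lower in PCK. Of 36 extracellular matrix and fibrosis genes 8 were called lower and none higher, with a median of -0.26 beside 0.04 in SD minus FHH. Lum, the small proteoglycan lumican of fibroblasts, was below detection in PCK and detected in FHH.Pkhd1, at 5.42, 5.57 and 5.38 on the PCK arrays and 7.57, 7.60 and 7.64 on the FHH.Pkhd1 arrays (log2 difference -2.15 ± 0.07, adjusted p = 3.74e-10, limma). Postn, periostin, a matrix protein of activated fibroblasts, was lower likewise (-1.35 ± 0.06). Col15a1 was 1.75-fold lower (8.0 ± 0.17 in PCK and 8.81 ± 0.10 in FHH.Pkhd1), decorin (Dcn) 1.69-fold (11.22 ± 0.04 in PCK and 11.97 ± 0.02 in FHH.Pkhd1) and the basement membrane chain Col4a2 1.66-fold (8.85 ± 0.22 in PCK and 9.59 ± 0.17 in FHH.Pkhd1).

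Fibroblast markers had 4 of 9 lower and none higher (median -0.37), with list means of 8.36 to 8.40 on the PCK arrays and 8.87 on each FHH.Pkhd1 array. Lum, Dcn and Col1a1 stand on both lists. Col1a1 (-0.59 ± 0.04) lay at the fold limit and lost its call under both rescalings (-0.55 and -0.56), on averaging its probe sets (-0.47), and without PCK array 3 (-0.58) or FHH.Pkhd1 array 1 (-0.57). Smooth muscle and pericyte markers had 3 of 9 lower, among them Rgs5 (1.84-fold, -0.88 ± 0.05), and endothelial markers had no called member among 10. Whether the matrix genes followed the share of stromal cells was not tested. Dcn (-0.85), Postn (-1.17) and Lum (-1.30) were called lower in SD minus FHH too, while Col15a1 (-0.19) and Col4a2 (0.11) were not called there and were called in the interaction.

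**Figure D3:**
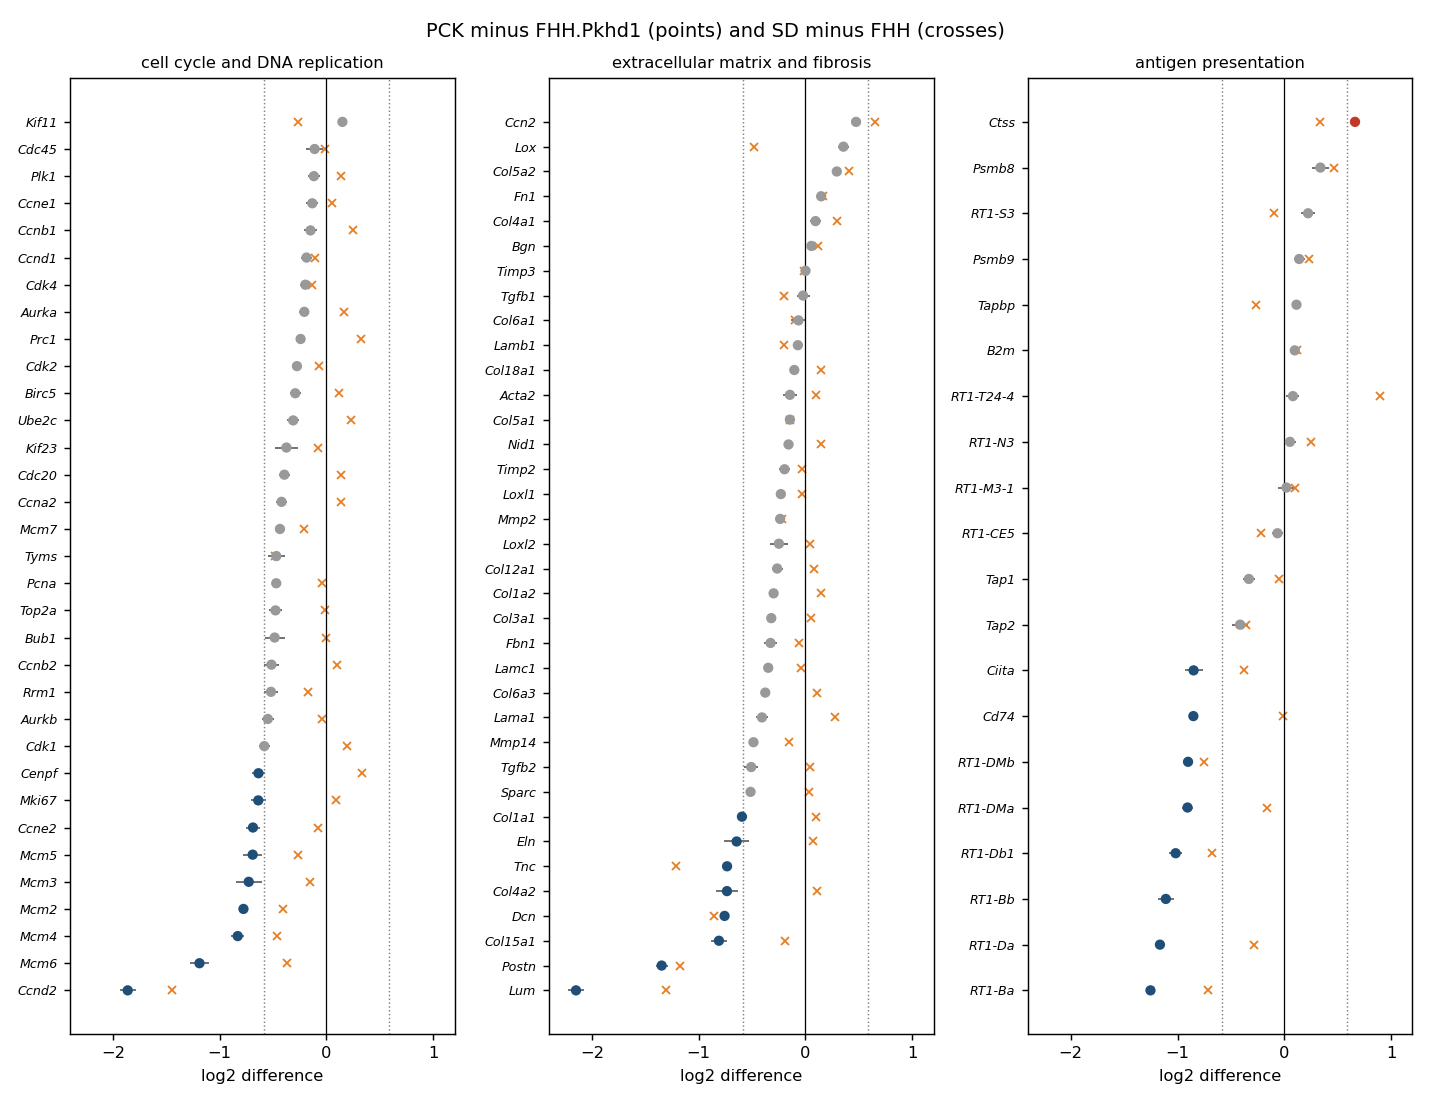
Log2 difference (horizontal axis) of every tested member of the cell cycle, extracellular matrix and antigen presentation lists in PCK minus FHH.Pkhd1 (points with SE, coloured where called) and in SD minus FHH (crosses), with dotted lines at 1.5-fold; the cross of RT1-Bb lies beyond the left edge. Among the cell cycle genes 32 of 33 points lie below 0, and the 8 lowest antigen presentation points are the class II genes and their partners.

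The called genes of fatty acid and sterol synthesis were all lower in PCK. In fatty acid synthesis 4 of 23 members were lower and none higher (median -0.31), and in sterol synthesis 4 of 19 and none (median -0.24). Scd, stearoyl-CoA desaturase, which makes monounsaturated fatty acids, read 5.81, 5.37 and 6.13 on the PCK arrays and 9.70, 9.51 and 9.98 on the FHH.Pkhd1 arrays and was 15.6-fold lower (log2 difference -3.96 ± 0.16, adjusted p = 1.05e-09, limma). Its PCK arrays lay around the detection level and ranged more widely than those of most genes. Thrsp, a nuclear protein that promotes lipogenesis, was 6.21-fold lower at 6.59 ± 0.20 in PCK and 9.23 ± 0.06 in FHH.Pkhd1, with -2.70 and -2.15 by its other probe sets. Fatty acid synthase (Fasn) was 1.77-fold lower (9.29 ± 0.07 in PCK and 10.11 ± 0.02 in FHH.Pkhd1) and the desaturase Fads1 1.66-fold (9.60 ± 0.04 in PCK and 10.34 ± 0.06 in FHH.Pkhd1). Of the sterol genes, lanosterol synthase (Lss) was 1.96-fold and Hsd17b7 1.75-fold lower, while Sqle (-0.59 ± 0.07) and Idi1 (-0.59 ± 0.05) stood at the fold limit. Both lost their call under quantile normalization and with arrays centred on their medians, which left 2 of the 4, and without FHH.Pkhd1 array 2. Sqle also lost it without PCK array 3, and Idi1 without PCK array 1. Averaging its probe sets, the second at -0.37, ended the call of Idi1 as well.

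Markers of fat and of adrenal cortex, tissues that lie against the kidney, moved the same way. Adipocyte markers had 7 of 12 tested members lower in PCK and none higher (1 higher under quantile normalization or median centring), with a median of -0.87 and list means of 7.41 to 7.44 on the PCK arrays and 8.14 to 8.20 on the FHH.Pkhd1 arrays. Car3 was 4.47-fold lower, Fabp4 2.73-fold, and the brown fat genes Cidea 2.20-fold and Ucp1 2.18-fold, while Lep lay below detection in every pool. Adrenal cortex markers had 5 of 7 lower and 1 higher, with a median of -2.04 and list means of 6.41 to 6.48 against 7.97 to 8.08. The steroid dehydrogenase Hsd3b1 read 5.85, 5.77 and 5.77 on the PCK arrays and 9.19, 9.38 and 9.30 on the FHH.Pkhd1 arrays (11.3-fold lower, log2 difference -3.49 ± 0.07, adjusted p = 7.58e-13, limma). Its PCK arrays lay just above the detection level, so the size of the fold is uncertain.

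Cyp11a1 (-2.54 ± 0.10) and Star (-2.04 ± 0.07), which start steroid synthesis, were lower and below detection in PCK, while Mrap, a melanocortin receptor partner, was 3.71-fold higher. Cyp11b1, Cyp17a1 and Nr5a1 of the adrenal cortex list, and Dbh, Pnmt, Chga and Chgb of the medulla list, lay below detection in all 4 pools. Resp18, a neuroendocrine gene on the medulla list, was lower in PCK (-2.36 ± 0.06). Both lists were lower in SD than in FHH as well, with medians of -0.71 and -1.11. The part of both tissues in the lower lipogenic genes, sterol genes and Akr1b7, itself on the adrenal cortex list, was not tested.

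**Figure D4:**
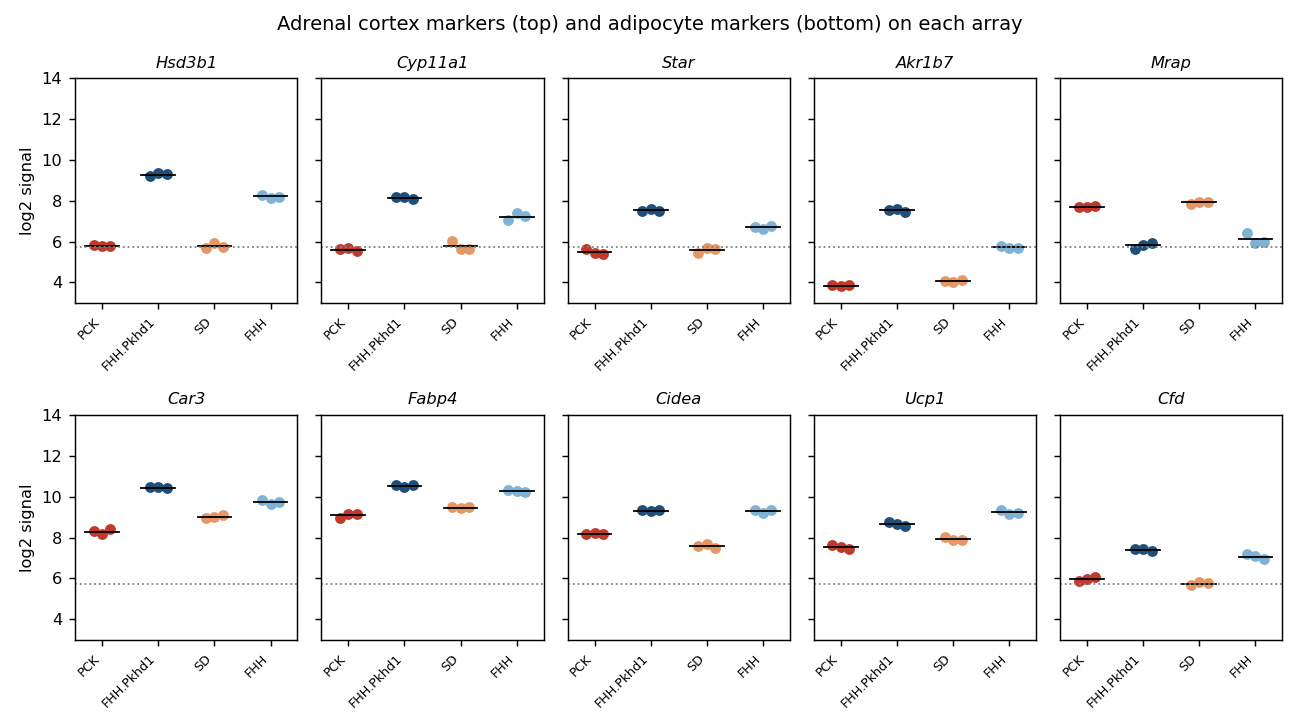
Log2 signal (vertical axis) of 5 adrenal cortex markers (top) and 5 adipocyte markers (bottom) on each array of the 4 pools (horizontal axis), with a bar at the mean and a dotted line at the detection level of 5.74. All but Mrap are lower in PCK and SD than in FHH.Pkhd1 and FHH.

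Clock genes differed in opposite directions. Of 18 tested, 5 were lower in PCK and 2 higher, beside 2.9% and 2.93% of all genes. Bhlhe40, a repressor of the clock activators, was 2.71-fold lower (7.20 ± 0.06 in PCK and 8.64 ± 0.06 in FHH.Pkhd1), Per3 1.98-fold, the clock-controlled protease Usp2 1.92-fold and Rora 1.89-fold. Npas2, an activator partner, was 2.0-fold higher (7.15 ± 0.05 in PCK and 6.15 ± 0.08 in FHH.Pkhd1). The output gene Dbp (-0.91 ± 0.05) and the activator Bmal1 (0.89 ± 0.10), named after their values were seen, completed the set. With the mean of all probe sets of a gene, Per3 and Rora were not called. The labels give no hour of sampling.

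Interferon response genes had 3 of 21 higher and none lower (median 0.23), beside 2.93% higher over all genes. The 3 were the guanosine triphosphatases Igtp (1.91-fold, 0.93 ± 0.05) and Irgm (0.77 ± 0.13), and Ifit2 (0.59 ± 0.07). The Ifit2 call was lost on averaging its probe sets (0.48) and without PCK array 2 (0.53) or FHH.Pkhd1 array 1 (0.52). With the filter raised to the 60th percentile 1 interferon gene was called, and 2 were on averaging probe sets or taking the one of largest interquartile range. Immediate early genes had 1 higher, Myc (0.61 ± 0.06), and 2 lower, Ccn1 (1.98-fold) and Jun (-0.63 ± 0.09), of 18. Myc lost its call without PCK array 2 (0.55) or FHH.Pkhd1 array 1 (0.54), and Jun without PCK array 1 (-0.55) or FHH.Pkhd1 array 3 (-0.57). The other probe sets of Jun gave 0.13 and -0.84, and its call was also lost on averaging them (-0.44) and under quantile normalization (-0.57). Retinoid genes had 1 of each in 15, beside 2.93% higher and 2.9% lower over all genes. Rarres1 was 4.41-fold higher and Cyp26b1, which degrades retinoic acid, 2.46-fold lower.

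Lists closest to cystic disease held few called genes. Of 32 genes of cystic disease and the primary cilium, 1 was higher and 1 lower, a share close to that over all genes. Ift140, a subunit of retrograde transport in the cilium, was 1.88-fold higher at 7.38 ± 0.06 in PCK and 6.47 ± 0.06 in FHH.Pkhd1 (log2 difference 0.91 ± 0.05, adjusted p = 3.57e-08, limma). Ahi1, a transition zone protein, was lower (-0.60 ± 0.12), but its second probe set gave 0.09. The call was lost on averaging the 2 (-0.26), with arrays centred on their medians (-0.57), and without PCK array 3 (-0.58) or FHH.Pkhd1 array 1 (-0.51) or 3 (-0.56). In vasopressin and cAMP signalling none of 26 was called, and 1 was called lower without a filter or with the probe set of largest interquartile range. The largest were Creb1, with 7.24 ± 0.13 in PCK and 7.63 ± 0.16 in FHH.Pkhd1, and Avpr1a, at -0.41. In the EGF receptor axis Erbb2 was the 1 of 11 called (-0.60 ± 0.05), and it was not called under quantile normalization (-0.53), with arrays centred on their medians (-0.57), or without PCK array 3 or FHH.Pkhd1 array 1 or 3. Of the nephron segments, thick ascending limb (9), intercalated cell (9) and podocyte (8) markers had no called member, the distal tubule calcium buffer Calb1 was 1.73-fold lower, the channel subunit Kcne1 of the principal cell list was higher (1.56 ± 0.13), and the water channel Aqp11 was 2.15-fold higher, 1 of 12 in its list.

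No probe set carried the symbol Pkhd1, so the gene itself is not measured here. By gene order on chromosome 9, 6 of the 40 tested genes nearest to it, 20 on each side, were called (15%, beside 5.83% of all genes), although the median size of their differences, 0.10, was below that over all genes, 0.14. The adhesion receptor Adgrf1 was higher in PCK (1.81 ± 0.07), as were Enpp4 (0.59 ± 0.06) and the glutathione transferase Gsta1 (0.60 ± 0.03). Gsta3 was 2.23-fold lower, and Mcm3 and the mitochondrial ribosome gene Mrpl14 (1.58-fold) were lower too. The ends of the congenic segment were not placed on this gene order, so which of the 40 lie inside it is not given here. In SD minus FHH also 6 of the 40 were called, with Enpp4, Adgrf1, Gsta3 and Gsta1 called in both. At the fold limit, the Enpp4 call was lost without PCK array 2 or FHH.Pkhd1 array 1 or 3, and the Gsta1 call without PCK array 3. Over whole chromosomes the share of called genes ran from 3.51% (chromosome 3) to 9.48% (chromosome 20, which carries the RT1 genes), leaving out Y, with 2 genes tested.

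SD and FHH give a related background contrast without the segment, in other pools. PCK and SD can differ outside the segment too: Fam111a, on chromosome 1, was at 11.88 in PCK and 6.88 in SD. The interaction holds such differences as well as those that go with the segment. In SD minus FHH, which shares no array with PCK minus FHH.Pkhd1, 361 genes (3.31%) were called. Called the same way in both were 186 genes, 29.3% of the 635 and 51.5% of the 361, while 9 were called in opposite directions. Of the 635 genes 80.0% had the same sign in SD minus FHH, beside 67.7% of all genes. Across the genes tested the 2 differences correlated at r = 0.53, given as a description since genes are not independent replicates.

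Genes with like differences in both pairs included Nat8b, at 4.15 and 3.94 (SD minus FHH second), and Cryga, a lens crystallin gene, at -3.36 and -3.75. Cryga read 6.84, 7.03 and 7.05 on the PCK arrays and 10.26, 10.43 and 10.30 on the FHH.Pkhd1 arrays, was 10.3-fold lower, and gave -3.28 by its second probe set. Mis18a, a centromere licensing factor (-2.05 and -1.89), Arxes1 (-2.27 and -1.88), Cox8b, a heart-type respiratory chain subunit (-1.65 and -1.89) and Serpinc1 (1.62 and 1.93) did so too. The interaction was not called for these 6. It was called for 61 of the 186 shared genes. In 52 of these the difference was larger in PCK minus FHH.Pkhd1, as in Ugt2b35 (5.46 against 3.98) and Pcdh9, a protocadherin (-2.42 against -1.60).

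Over all genes 547 (5.02%) were called in the interaction, 316 of them among the 635. Of the 440 genes called in PCK minus FHH.Pkhd1 and not in SD minus FHH, the interaction was called for 246, and for the other 194 it was not called, which includes changes under the fold limit. Serpina3n had a large positive interaction (4.96 ± 0.11, adjusted p = 1.74e-11, limma). Fam111a, a protease that protects replication forks, was 2.10-fold higher in PCK, and far lower in SD (6.88) than in FHH (10.64). Havcr1 followed with 4.08 ± 0.12, adjusted p = 3.39e-10. In the other direction Enpp6, a choline phosphodiesterase, read 5.99, 6.49 and 6.18 on the PCK arrays and 8.5, 8.56 and 8.52 on the FHH.Pkhd1 arrays, 4.95-fold lower, and was at 8.95 in SD and 8.51 in FHH, so PCK was the low pool. Klk1c4, a kallikrein, was 2.25-fold lower in PCK and higher in SD than in FHH (1.46). Dusp15, a phosphatase, was detected in PCK (7.23 ± 0.30) and below detection in FHH.Pkhd1 (4.43 ± 0.04), SD (4.92) and FHH (4.65).

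**Figure D5:**
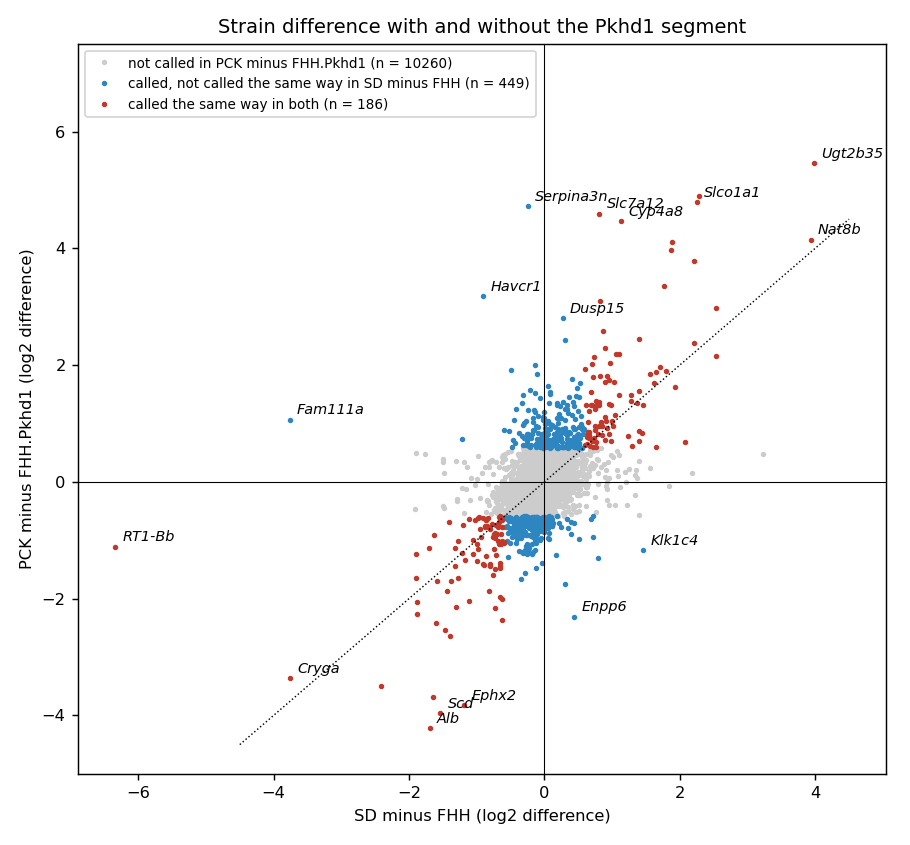
Log2 difference of each tested gene in PCK minus FHH.Pkhd1 (vertical axis) against SD minus FHH (horizontal axis), which come from different arrays, with the line of equal differences dotted. The 186 shared genes lie in the upper right and lower left, and Serpina3n, Havcr1, Dusp15 and Fam111a lie apart in the upper part.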

How the data were processed

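Kidney RNA of 4 rat strains, kept in RNAlater and extracted with Trizol, was biotin-labelled with the 3' IVT Express kit, as the labels' protocols state. The authors deposited log2 signals of 31099 probe sets on 12 arrays, and the submitters' processing notes name RMA and Partek 6.2. The sources used here do not state if the 12 arrays were normalized as one set. Array medians ran from 6.41 to 6.46, and no depth applies to arrays, whose number, 3 per strain, limits the precision.

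After 57 control probe sets were set aside, 20826 probe sets had 1 symbol, 436 several and 9780 none. The first were named through current gene records (20812 matched, 14 kept the platform's symbol) and gave 14217 genes at 1 probe set each. The 10895 genes with a strain mean at or above the 40th percentile of the values were fitted with limma 3.58.1 in R 4.3.3, with 1 mean per strain over the 12 arrays, eBayes and Benjamini-Hochberg adjustment over all genes tested. On simulated data for this comparison, with 10895 genes, 100% of genes changed 1.8-fold or more were called, 0% of those changed 1.2-fold, and 0 unchanged genes. The simulated noise was independent and had the spread between arrays of a pool. These rates therefore check the calling step and do not cover differences between animals or pools.

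Genes were named by rule: the 15 largest called differences each way without placeholder symbols, up to 5 called members of each list (2 where none was called), the 10 largest interactions and the 10 largest shared differences each way, called neighbours of Pkhd1 and the aldo-keto reductases. Not every gene under the rule is described, and exceptions are stated. The members and lists were chosen with earlier results of these data known. Alternatives changed the filter, probe set, fold limit, normalization, variance model, arrays in the fit or the replicate number as a block, or left out each array in turn.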

Additional observations from a re-analysis of the deposited data

Results flagged for a closer look

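The interaction, (PCK minus FHH.Pkhd1) minus (SD minus FHH), was called in limma for 93 of the 144 named genes. Calls needed an adjusted p under 0.05 and 1.5-fold. Over all genes tested 5.02% were called. The named genes were picked in part for large differences or interactions, so their higher share follows in part from that choice. The value of each gene is the interaction on the log2 scale, positive where PCK minus FHH.Pkhd1 exceeded SD minus FHH. A positive value can come from a higher PCK or FHH, or from a lower FHH.Pkhd1 or SD. SD was the low pool for Fam111a, at 6.88 beside 11.88 in PCK, 10.82 in FHH.Pkhd1 and 10.64 in FHH. It was also low for Akr1b8, at 6.38 beside 8.85, 8.35 and 8.27 in the same order. For Slco1a1 PCK minus SD was -1.65 and FHH.Pkhd1 minus FHH -4.19, and for Serpina3n these were 4.78 and -0.19. Akr1b8, Creb1 and Avpr1a are among the 93 although they were not called in PCK minus FHH.Pkhd1.

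Positive interactions above 2, in log2, were RT1-Bb 5.23, Serpina3n 4.96, Fam111a 4.83, Havcr1 4.08, Slc7a12 3.78, Cyp4a8 3.33, Dhrs7l1 2.61, Slco1a1 2.54, Dusp15 2.53, Slpi 2.40, Akr1b8 2.39, AKR1C3l1 2.28, Cps1 2.22, Azgp1 2.12 and Akr1c13 2.11. For RT1-Bb the sign depends on the probe set: with the other one PCK exceeded FHH.Pkhd1 by 0.17 while SD exceeded FHH by 5.23, an interaction of opposite sign. Smaller ones above 1 were Eci2 1.8, Tff3 1.71, F2 1.66, Pzp 1.59, Akr1c1 1.58, Slc22a7 1.51, Ugt2b35 1.48, Rarres1 1.40, Abcc2 1.34, Clu 1.33, Serping1 1.30, Gpnmb 1.30, Ace 1.25, Agmat 1.21, Fga 1.21, Cfi 1.16, Lcn2 1.09, Proc 1.04 and Ptgds 1.0. The remaining positive interactions were Acmsd 0.94, Slc1a4 0.91, Abcb1a 0.91, Npas2 0.91, Adgrf1 0.88, Odc1 0.85, Ehhadh 0.80, Igtp 0.78, Bmal1 0.67, Ugt2b7 0.64, Slc22a2 0.63, Gdf15 0.60, Ift140 0.60 and Agt 0.59.

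Negative interactions below -2 were Enpp6 -2.74, Ephx2 -2.65, Klk1c4 -2.64, Alb -2.53, Scd -2.42, Cyp26b1 -2.09, Acadsb -2.05 and Akr1b7 -2.04. Akr1b7 was below detection in PCK (3.85), SD (4.08) and FHH (5.73), so its SD minus FHH part carries no order. Smaller negative interactions below -1 were Resp18 -1.74, Ccn1 -1.5, Car3 -1.43, Creb1 -1.34, Jun -1.32, Idi1 -1.31, Thrsp -1.24, Cyp11a1 -1.08, Hsd3b1 -1.08 and Gsta1 -1.05. The remaining negative interactions were Cenpf -0.97, Rgs5 -0.95, Star -0.93, Lss -0.92, Ahsg -0.88, RT1-Da -0.88, Avpr1a -0.87, Col4a2 -0.85, Lum -0.85, Cd74 -0.84, Ptgs2 -0.84, Mcm6 -0.82, Pcdh9 -0.81, Calb1 -0.81, Bhlhe40 -0.78, Rora -0.77, RT1-DMa -0.74, Mki67 -0.73, Agtr1b -0.72, Col1a1 -0.70, Fasn -0.69, Ahi1 -0.66, Sqle -0.66, Hsd17b7 -0.65, Fabp4 -0.64, Col15a1 -0.62 and Ccne2 -0.61.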

How the results depend on the processing

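No named gene changed sign and was called under any alternative run. With the fold limit dropped, calls numbered 5877 (PCK higher in 1998, lower in 3879), with 3345 in the interaction and 2208 shared with SD minus FHH. At a limit of 2-fold these were 201, 119, 82, 170 and 56. Under the other alternatives the count called ran from 474 (filter at the 60th percentile) to 786 (probe set with the largest interquartile range). Leaving out 1 array at a time gave 617 to 649 called, 307 to 331 higher, 305 to 342 lower, 538 to 567 in the interaction and 182 to 186 shared. Of 144 named genes, 138 of them called, 13 lost the call in at least 1 of these, 8 under quantile normalization, 6 with arrays centred on their medians and 11 with the mean of a gene's probe sets.

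The replicate numbers did not pair the PCK arrays with the FHH.Pkhd1 arrays: the deviations of same-numbered arrays of these strains correlated at -0.12, -0.13 and 0.06. Whether the numbers pair the SD and FHH arrays was not tested. With the replicate block 635 genes were called, 319 higher and 316 lower, and 547 in the interaction, with no call of a named gene changed. Each strain was 1 pool, so differences between animals were not measured, and signals below 5.74 carry no order. Genes whose probe sets disagree, RT1-Ba and RT1-Bb among them, depend on the probe set kept.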
